A study of Mus musculus with 32 samples.

Results

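Adipocyte and lipid metabolism genes were followed in the tumors and in the surrounding stroma of mice implanted with MCG 101, a transplantable mouse sarcoma. The 35 members were chosen by name as genes of fat cells and lipid metabolism, with earlier results of these data known, and all 35 were found among the 45616 gene names of the array. They comprised 2 fat cell regulators, 4 secreted fat cell factors, 11 genes of lipid storage, 5 of fatty acid uptake and transport, 7 of fatty acid synthesis, 4 of lipolysis, and Car3 and Ucp1. The study hybridised total RNA to 32 single-colour arrays in 4 groups of 8: stroma of EP2 knockout hosts, stroma of EP2 wild-type hosts, tumor from EP2 knockout hosts and tumor from EP2 wild-type hosts. Each group held 4 samples labelled female and 4 labelled male, and all hosts carried the implanted tumor, so no group was free of tumor. EP2, encoded by Ptger2, is a receptor for prostaglandin E2. The labels give neither the age and strain of the hosts nor the EP2 status of the implanted cells, and do not say which cells the dissected stroma held.

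White fat cells take up fatty acids that lipoprotein lipase frees from circulating lipoproteins, join them to glycerol as triglyceride, and keep the triglyceride in a droplet coated with perilipins. Lipolysis reverses this: catecholamines raise cyclic AMP through beta-adrenergic receptors, and lipases then release fatty acids. Fatty acid synthesis is a separate route, from citrate through acetyl-CoA and malonyl-CoA to palmitate. It runs in fat and liver after feeding and is also known to be active in many proliferating tumor cells. Several of these genes serve skeletal muscle as well as fat, among them Lpl, Cd36, Slc2a4, Lpin1 and Car3.

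Levels are given as the log2 processed signal minus the log2 of the array's 75th percentile, so 0 is the brightness of that percentile. A level of 1 probe is compared across arrays and not with another probe. The 75th percentile ran from 584 to 1727 intensity units and 47.8% to 75.2% of probes were well above background, so dim members have only an upper limit on many arrays. On the first principal component, which held 58.6% of the variance, 2 arrays stood apart from their label. Wild-type stroma 65 and 82 scored -68.2 and -113, inside the span of the 16 tumor arrays (-161 to -31.2), and the remaining 14 stroma scores all exceeded 22 and reached 227. On 3 stroma and 2 tumor arrays labelled male (knockout 95 and 99 in both tissues, and wild-type stroma 9), the Y-linked gene Ddx3y was no higher than on the female-labelled arrays. On male-labelled wild-type stroma 82 and wild-type tumors 4, 9 and 65 it was higher than that, but not well above background. The signal of Ptger2 itself was not lower under the knockout label, with medians of -3.76 in stroma labelled knockout and -4.83 in stroma labelled wild type (difference 0.87 ± 0.38, SE, limma adjusted p = 0.159). In tumor the Ptger2 medians were -4.33 under the knockout label and -5.31 under the wild-type label (difference 1.03 ± 0.41, adjusted p = 0.980). The sources used here do not say whether the probe falls within the deletion, so this signal does not check the labels, and genotype names are those of the labels throughout.

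Promoter sequences are shown for Plin1 and Adipoq, which were high in stroma, and for Fasn, which was high in tumor, because these genes stand for the storage, secreted and synthesis classes. RefSeq windows (GRCm38.p6) were found for 25 of the 35 members, and the 250 bases before the transcription start were searched on both strands for 4 motifs. These were TTGCNNAA, a C/EBP-type site, CCAAT, the site of the factor NF-Y, TCACNCCAC, a sterol response element bound by SREBP factors, and the direct repeat with 1 spacer base that PPARG binds with RXR. TTGCNNAA was found in 4 of 33 member windows (in Lep, Cidec, Pparg and Plin1) and in 9.56% of all 32851 windows. CCAAT was found in 9 of 33 member windows, in 8 genes, and in 33.8% of all windows. TCACNCCAC was found in 1 member window, that of Acsl1 (1.05% of all windows), and the direct repeat in none (0.338%). The 3 sequences run 5′ to 3′ on the strand of the gene and end at the base before the start, and capitals mark every motif match. They are, for Plin1, chr7:79732777-79733026 on the minus strand, with 2 matches to TTGCNNAA; for Adipoq, chr16:23146286-23146535 on the plus strand, with 3 matches to CCAAT; and for Fasn, chr11:120824548-120824797 on the minus strand, with 3 matches to CCAAT, of which a pair overlaps on opposite strands.
Plin1: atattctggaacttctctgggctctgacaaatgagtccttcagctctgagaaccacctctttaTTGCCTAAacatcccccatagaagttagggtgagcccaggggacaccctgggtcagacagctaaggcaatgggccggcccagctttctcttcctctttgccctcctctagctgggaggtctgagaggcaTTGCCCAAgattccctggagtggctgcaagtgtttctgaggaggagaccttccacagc
Adipoq: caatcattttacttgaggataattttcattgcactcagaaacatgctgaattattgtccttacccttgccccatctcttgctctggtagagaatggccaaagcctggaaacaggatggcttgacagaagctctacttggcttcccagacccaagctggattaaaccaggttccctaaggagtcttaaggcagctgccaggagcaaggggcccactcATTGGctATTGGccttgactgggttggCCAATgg
Fasn: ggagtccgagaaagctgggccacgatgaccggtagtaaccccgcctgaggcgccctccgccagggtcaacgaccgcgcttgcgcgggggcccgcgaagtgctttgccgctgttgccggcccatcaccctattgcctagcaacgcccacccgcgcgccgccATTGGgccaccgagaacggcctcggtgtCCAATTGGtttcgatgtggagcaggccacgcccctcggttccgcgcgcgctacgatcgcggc

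Most fat cell genes were far higher in stroma than in tumor, while the enzymes that make fatty acids were lower. Of 34 members tested, 26 were higher in stroma and 5 lower at an adjusted p under 0.05 (limma with Benjamini-Hochberg adjustment over all 27120 genes tested), where 62.8% of all genes were called, 26% higher and 36.8% lower. The median difference was 3.24 over the 35 members and -0.13 over all genes tested. By class, the medians were 3.94 for lipid storage, 3.26 for lipolysis and -1.22 for fatty acid synthesis. The test was not passed by 3 members (Lep, Dgat1 and Scd1), and Ucp1 was too dim to be tested. Of the 26 higher members, 7 (Adipoq, Plin1, Cidea, Pck1, Aqp7, Lipe and Adrb3) were well above background on 5 or fewer of the 16 tumor arrays and passed the filter through stroma, so their calls follow in part from the filter. Among the 20 members well above background on all 32 arrays, 12 were higher and 5 lower. In bulk tissue, fewer cells of a type and less RNA per cell cannot be told apart. The stroma also held far more muscle RNA: all 12 skeletal muscle markers were called higher there (median difference 6.45), with a summed level of 6.31 to 12.6 over the stroma arrays and 1.33 to 10.4 over the tumor arrays. All 8 cell cycle genes were called lower in stroma (median difference -2.56). The part of either in the results below was not tested.

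**Figure D1:**
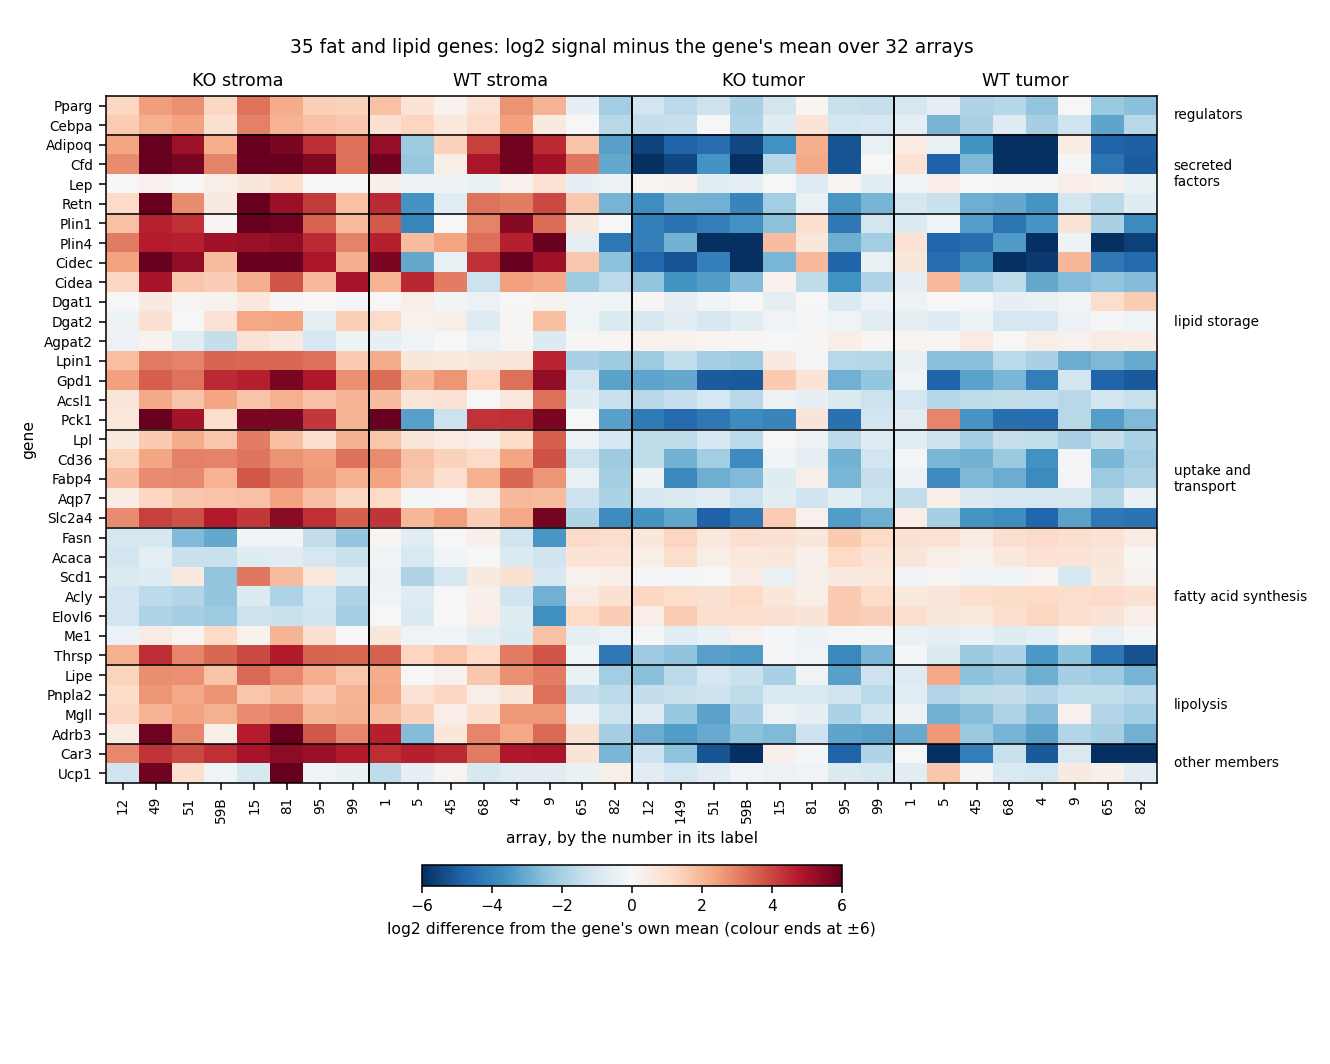
Heat map of the 35 members (rows, grouped by role) on the 32 arrays (columns, by the number in each label), as log2 signal minus the gene's own mean over all arrays; colour ends at ±6. Red prevails in the knockout stroma columns for storage, uptake and lipolysis genes, while Fasn, Acaca, Acly and Elovl6 are blue there and red in tumor; the wild-type stroma columns vary, with 82 blue for most storage genes and 5 blue for Adipoq, Plin1 and Pck1.

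Both fat cell regulators were higher in stroma. Pparg, the nuclear receptor that drives fat cell differentiation, ran from 0.61 to 2.64 (median 1.22) in knockout stroma and from -2.69 to 2.06 (median 0.21) in wild-type stroma. In tumors it ran from -2.56 to -0.48 (median -1.91) in knockout hosts and from -3.10 to -0.65 (median -2.40) in wild-type hosts. All 8 knockout stroma arrays lay above every tumor array, and among wild-type stroma only arrays 65 and 82 fell into the tumor range. The difference was 2.73 ± 0.36 (SE, adjusted p = 5.55e-07), a 6.63-fold higher signal. Cebpa, the C/EBP factor that sustains the fat cell state together with Pparg, differed by 2.60 ± 0.32 (adjusted p = 2.20e-07).

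Among the secreted factors, Adipoq, Cfd and Retn showed differences of 4.69 to 7.45, and Lep did not pass the test. Adipoq encodes adiponectin, a hormone made by fat cells. It ran from 0.41 to 4.46 (median 2.996) in knockout stroma and from -5.00 to 4.05 (median 1.15) in wild-type stroma. Tumors gave -7.30 to 0.42 (median -6.44) in knockout hosts and -7.99 to -1.28 (median -5.96) in wild-type hosts. A single tumor array, knockout 81, reached the lowest knockout stroma level, and only 5 of 16 tumor arrays were well above background. The fitted difference was 6.57 ± 0.93 (adjusted p = 1.24e-06), with background-level values on most tumor arrays, so no fold is given. Cfd, the complement factor adipsin, differed by 7.45 ± 1.01 (adjusted p = 7.23e-07), or 174-fold. It was well above background on 7 of 8 knockout and 6 of 8 wild-type tumors, so that fold includes some background-level values. Retn, encoding resistin, differed by 4.69 ± 0.73 (adjusted p = 4.24e-06). Lep, which encodes leptin, was detected on all 32 arrays at levels between -4.52 and -2.69. Its stroma levels ran from -4.24 to -2.69 and its tumor levels from -4.52 to -3.31, and 3 stroma arrays lay above every tumor. The Lep difference was 0.24 ± 0.15 (adjusted p = 0.167) over all hosts. In knockout hosts alone Lep was called higher in stroma (0.57 ± 0.21, adjusted p = 0.0236), as were the other 3 secreted factors, while in wild-type hosts it was not (-0.09 ± 0.21, adjusted p = 0.775); the difference between the hosts did not pass the test (0.66 ± 0.30, adjusted p = 0.216).

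The storage class held both wide differences and genes that barely differed. Plin1 encodes perilipin 1, which coats the droplet of fat cells and holds lipases off it. Its level ran from -3.30 to 2.54 (median 0.46) in knockout stroma and from -7.38 to 1.98 (median -1.71) in wild-type stroma. The tumor values were -7.90 to -2.47 (median -7.33) in knockout hosts and -7.80 to -2.71 (median -6.10) in wild-type hosts. Wild-type stroma 5 had a level as low as the dimmest tumors, and the highest tumors overlapped the lower stroma arrays. The fitted Plin1 difference was 5.05 ± 0.76 (adjusted p = 2.58e-06), again with 11 of 16 tumor arrays at background level and no fold given. Plin4, a perilipin of small droplets also found in muscle, differed by 6.70 ± 0.85 (adjusted p = 3.11e-07), and Cidec, a droplet fusion protein, by 6.75 ± 1.02 (adjusted p = 3.11e-06). Cidea, the related protein of brown fat droplets, differed by 3.94 ± 0.58 (adjusted p = 1.94e-06). It was well above background on only 1 of 8 knockout and 3 of 8 wild-type tumors. Its highest stroma levels were 1.11 and 1.09 in knockout stroma 99 and 49 and 0.68 in wild-type stroma 5.

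Enzymes that supply glycerol and activated fatty acids for triglyceride were also higher in stroma. Gpd1, which makes glycerol-3-phosphate, differed by 5.66 ± 0.67 (adjusted p = 1.28e-07), or 50.6-fold. Pck1, which makes the glycerol backbone from non-sugar precursors in fat, differed by 5.47 ± 0.98 (adjusted p = 2.57e-05), and 12 of the 16 tumor arrays were not well above background. Lpin1, the phosphatidate phosphatase lipin 1, ran from 2.60 to 4.51 (median 4.22) in knockout stroma and from -1.13 to 5.60 (median 1.69) in wild-type stroma. In tumors it ran from -1.16 to 1.57 (median -0.69) in knockout hosts and from -2.01 to 0.56 (median -1.51) in wild-type hosts. Knockout stroma lay above all tumors, and wild-type stroma 65 and 82 fell inside the tumor range. The Lpin1 difference was 3.56 ± 0.46 (adjusted p = 3.45e-07), and that of Acsl1, which joins fatty acids to coenzyme A, was 2.49 ± 0.29 (adjusted p = 1.28e-07).

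The acyltransferases behaved differently from the droplet proteins. Dgat2, which catalyses the last step of triglyceride synthesis, was higher by 1.12 ± 0.26 (adjusted p = 5.15e-04). Dgat1, a second enzyme for the same step, differed by 0.15 ± 0.16 (adjusted p = 0.411). Agpat2, which acylates lysophosphatidate and whose loss causes lipodystrophy in people, was lower in stroma by 0.47 on the log2 scale (-0.47 ± 0.16, adjusted p = 0.0125). It lost that call with scaling to bright probes (-0.35, adjusted p = 0.065) and without the arrays against their sex label (-0.21, adjusted p = 0.191). Of the 11 storage members, 9 were therefore called higher, 1 lower and 1 neither. Among the 9, Plin1, Cidea and Pck1 passed the filter through stroma, so their calls follow in part from the filter.

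All 5 uptake and transport members were called higher in stroma. Of these, Aqp7 passed the filter through stroma, being well above background on 2 of 8 knockout and 2 of 8 wild-type tumors. Slc2a4 encodes GLUT4, the insulin-responsive glucose carrier of fat and muscle. It ran from 3.82 to 6.43 (median 5.17) in knockout stroma and from -2.78 to 6.73 (median 3.15) in wild-type stroma. Tumor levels were -3.85 to 2.52 (median -2.24) in knockout hosts and -3.78 to 1.41 (median -2.64) in wild-type hosts. The 2 lowest stroma arrays were wild type 82 and 65 and the highest tumor was knockout 15. The difference was 5.73 ± 0.66 (adjusted p = 1.10e-07), or 53.1-fold. Fabp4, the fatty acid carrier of fat cells, differed by 4.02 ± 0.48 (adjusted p = 1.54e-07), and the fatty acid receptor Cd36 by 3.91 ± 0.47 (adjusted p = 1.70e-07). Fabp4 is also made by macrophages and endothelium. In stroma, 7 of 8 macrophage markers and 8 of 8 endothelial markers were called higher, against 26% of all genes. The part of these cells in the result was not tested. Lpl, lipoprotein lipase, differed by 2.57 ± 0.31 (adjusted p = 1.77e-07) and the glycerol channel Aqp7 by 1.83 ± 0.30 (adjusted p = 8.06e-06).

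**Figure D2:**
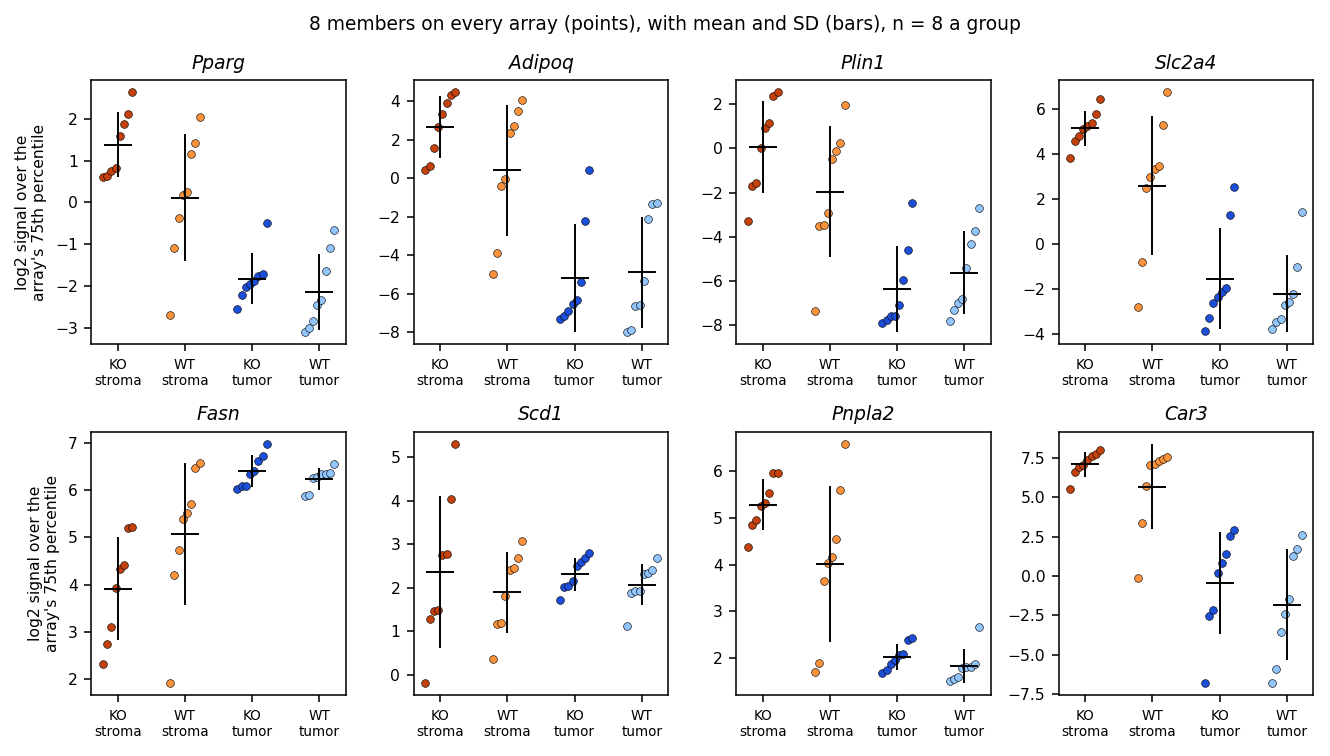
Log2 signal over the array's 75th percentile for 8 members, 1 point per array, with mean and SD (bars, n = 8 a group), knockout left of wild type and stroma left of tumor. Pparg, Adipoq, Plin1, Slc2a4, Pnpla2 and Car3 are high in most stroma arrays, Fasn is high in all 16 tumors (5.89 to 6.99), and Scd1 overlaps in all 4 groups.

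Fatty acid synthesis genes ran the other way, apart from Me1, Thrsp and Scd1. Fasn, fatty acid synthase, which builds palmitate, ran from 2.32 to 5.23 (median 4.14) in knockout stroma and from 1.91 to 6.58 (median 5.45) in wild-type stroma. In tumor the range was narrow, from 6.04 to 6.99 (median 6.38) in knockout hosts and from 5.89 to 6.56 (median 6.31) in wild-type hosts. Every knockout stroma array lay below every tumor, and of wild-type stroma only arrays 65 (6.58) and 82 (6.48) reached the tumor range. Fasn was lower in stroma by -1.84 ± 0.33 (log2 difference, adjusted p = 3.09e-05). Acly, ATP citrate lyase, which makes cytosolic acetyl-CoA, differed by -1.98 ± 0.25 (adjusted p = 2.72e-07), and Acaca, acetyl-CoA carboxylase, by -1.22 ± 0.17 (adjusted p = 1.42e-06). Elovl6, which lengthens palmitate, differed by -1.91 ± 0.31 (adjusted p = 9.41e-06).

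The remaining 3 synthesis members did not follow these enzymes. Thrsp, the lipogenic nuclear protein Spot 14, was higher in stroma by 4.83 ± 0.56 (adjusted p = 1.20e-07), and Me1, malic enzyme, which supplies NADPH, by 0.55 ± 0.22 (adjusted p = 0.0337). The Me1 call was lost with no filter on dim genes (adjusted p = 0.056) and when slide was fitted as a block (0.51, adjusted p = 0.057). Scd1, the stearoyl-CoA desaturase, differed by -0.07 ± 0.31 (adjusted p = 0.867). Its stroma range was wide: knockout stroma 15 and 81 had 5.31 and 4.04, above every tumor (highest 2.79), while knockout stroma 59B had -0.19, below every tumor (lowest 1.12).

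All 4 lipolysis members were called higher in stroma, but Lipe (3 of 16 tumor arrays well above background) and Adrb3 (1 of 16) passed the filter through stroma, which leaves Pnpla2 and Mgll as the members measured in both tissues. Pnpla2 encodes ATGL, which removes the first fatty acid from triglyceride. It ran from 4.39 to 5.96 (median 5.29) in knockout stroma and from 1.71 to 6.59 (median 4.09) in wild-type stroma. Tumor levels were 1.67 to 2.43 (median 2.01) in knockout hosts and 1.52 to 2.67 (median 1.79) in wild-type hosts, so the knockout hosts' tissues did not overlap. Pnpla2 differed by 2.72 ± 0.32 (adjusted p = 1.13e-07), Lipe, hormone-sensitive lipase, by 3.28 ± 0.47 (adjusted p = 1.48e-06) and Mgll, monoglyceride lipase, by 3.24 ± 0.37 (adjusted p = 8.25e-08). Adrb3, the beta-3 adrenergic receptor that starts lipolysis in rodent fat, was well above background on 8 of 8 knockout and 6 of 8 wild-type stroma arrays, and on 0 of 8 knockout and 1 of 8 wild-type tumors. Its fitted difference was 4.69 ± 0.68 (adjusted p = 1.77e-06). Against the lowest signal that counted as above background, Adrb3 was at least 17.0-fold higher in knockout stroma than in knockout tumor; the measured means were -1.32 and -7.49.

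Car3 and Ucp1 fall outside these classes. Car3, a cytosolic carbonic anhydrase abundant in fat and in slow muscle, differed by 7.51 ± 0.89 (adjusted p = 1.30e-07), or 183-fold. It ran from 5.51 to 7.97 (median 7.195) in knockout stroma, from -0.11 to 7.52 (median 7.07) in wild-type stroma, from -6.80 to 2.91 (median 0.52) in knockout tumor and from -6.78 to 2.60 (median -1.96) in wild-type tumor. Apart from wild-type stroma 82, every stroma array lay above every tumor. Car3 was well above background on 7 of 8 knockout and 6 of 8 wild-type tumors, so its fold includes some background-level values. Ucp1, the uncoupling protein that defines brown and beige fat cells, was well above background on knockout stroma 49 (-1.13) and 81 (-0.88) alone, and on 0 of 8 wild-type stroma and 0 of 16 tumor arrays. More than 1 probe was present for 15 of the 35 genes, and among probes above background on at least 8 arrays 0 of these genes had probes that differed in the sign of the stroma and tumor difference.

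More members were called between the tissues in knockout than in wild-type hosts, but the difference between the hosts did not pass the test. In knockout hosts 27 members were called higher and 4 lower in stroma (27.4% and 32.3% of all genes, 59.7% in all). In wild-type hosts 24 were called higher and 2 lower (11.8% and 19.8%, 31.6% in all). In both, calls of Adipoq, Plin1, Cidea, Pck1, Aqp7, Lipe and Adrb3, which passed the filter through stroma, follow in part from the filter. Ranges of stroma and tumor did not overlap for 20 higher and 4 lower members in knockout hosts (13.1% and 18.1% of all genes) and for 0 members in wild-type hosts (0.111% and 0.785%). Of the 20, Cidea, Aqp7, Lipe and Adrb3 were well above background on 1, 2, 1 and 0 of 8 knockout tumors. Their separation therefore also follows in part from the filter. Over all 32 arrays 0 members had ranges that did not overlap (0% of genes higher, 0.059% lower). Without wild-type stroma 65 and 82 there were 11 higher members (3.13%) and 3 lower, Fasn, Acaca and Acly (3.61%). The interaction of genotype and tissue was called for 0 of 34 members and 0% of genes by limma, with an unadjusted p under 0.05 for 8 members and 21.0% of genes. The smallest were Acaca, at -0.91 ± 0.35 (adjusted p = 0.161), and Elovl6, at -1.60 ± 0.63 (adjusted p = 0.168). With array weights 27 members passed (48.9% of genes), and without wild-type stroma 9 there were 9 (20.1%).

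**Figure D3:**
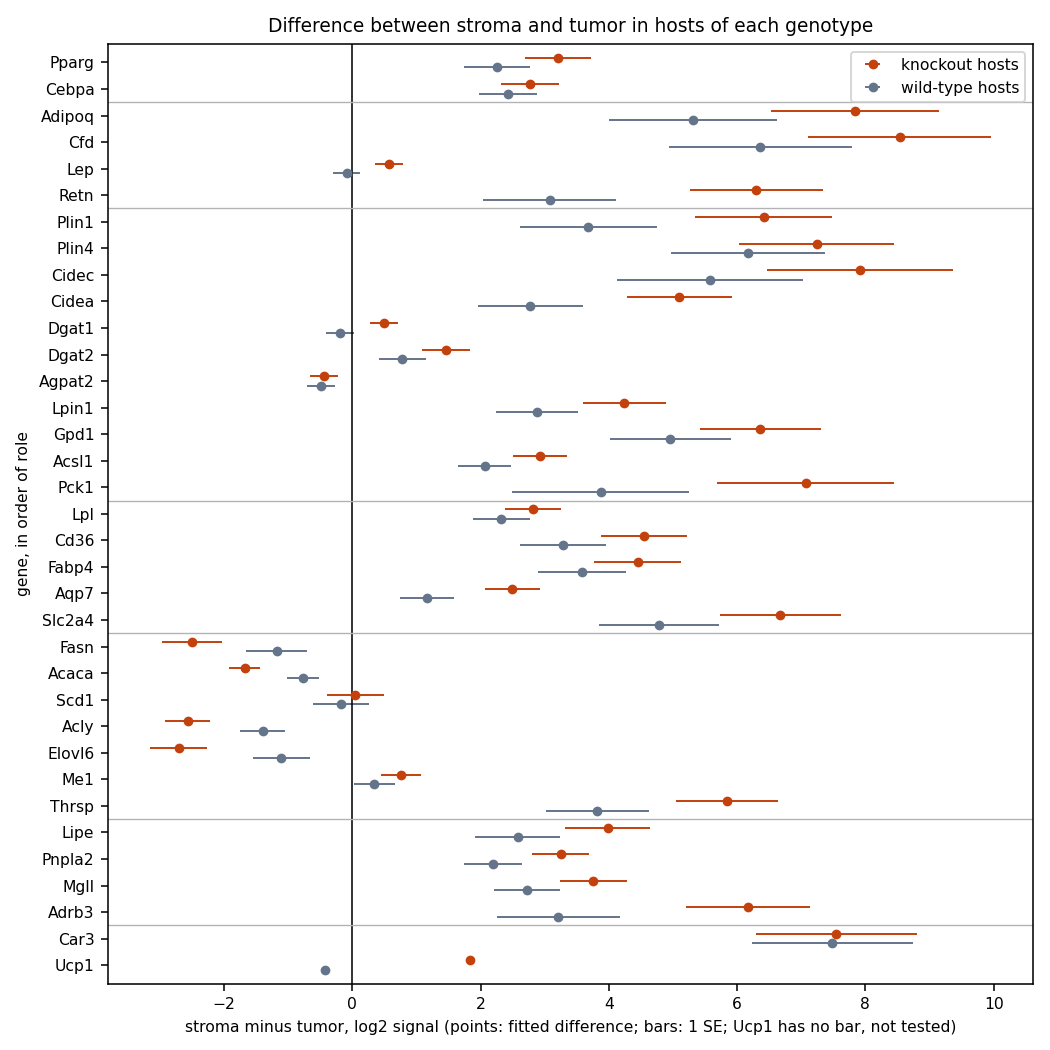
Fitted stroma minus tumor difference (log2, bars 1 SE) for each member in knockout hosts and in wild-type hosts, in order of role. Most points lie right of 0 and spread widely (30 members in knockout hosts and 26 in wild-type hosts). Fasn, Acaca, Acly, Elovl6 and Agpat2 lie left of 0 in both, and the knockout point is farther from 0 for most members.

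To set the classes side by side without comparing probes, each member was taken relative to its own mean over the 32 arrays and the median was formed within a class. Lipid storage ran from 1.22 to 3.78 (median 3.15) in knockout stroma and from -1.59 to 3.37 (median 0.53) in wild-type stroma. In tumor it ran from -3.37 to 0.06 (median -2.49) in knockout hosts and from -3.05 to -0.37 (median -1.98) in wild-type hosts. The storage level of all knockout stroma arrays was thus above all tumors. Plin1, Cidea and Pck1 entered this level although most of their tumor values were at background, so the separation rests in part on them. Lipolysis ran from 1.17 to 3.11 (median 2.33) in knockout stroma and from -1.78 to 3.18 (median 0.92) in wild-type stroma. Its tumor ranges were -2.53 to -0.73 (median -1.83) in knockout hosts and -2.77 to 0.25 (median -1.96) in wild-type hosts, the same pattern as storage. In the lipolysis class, Lipe and Adrb3 were at background on most tumors. Synthesis ran from -2.19 to -0.18 (median -1.01) in knockout stroma and from -1.18 to 0.81 (median -0.03) in wild-type stroma. In tumor, synthesis lay between 0.33 and 1.18 (median 0.64) in knockout hosts and between 0.23 and 0.85 (median 0.62) in wild-type hosts. Storage and lipolysis were highest, and synthesis lowest, on wild-type stroma 9 within its group, while wild-type stroma 82 was at the opposite end for all 3 classes.

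Between stroma labelled knockout and stroma labelled wild type, 30 of 35 members were higher and 5 lower (Agpat2, Fasn, Acaca, Acly and Elovl6). Of all genes tested, 55.3% were higher in knockout stroma. However, 0 of 34 members passed the test, as did 0% of the 24782 genes tested. By limma, 12 members had an unadjusted p under 0.05 (9 higher, 3 lower), as did 28.5% of all genes, and the smallest adjusted p of any gene was 0.125. The median difference was 1.30 over the members and 0.09 over all genes. By class it was 2.01 for storage, 1.34 for lipolysis and -0.79 for synthesis. Without wild-type stroma 65 and 82, the arrays that lay among the tumors, the medians were 0.54 for storage, 0.38 for lipolysis and -0.29 for synthesis. Markers of other cells differed between the same arrays with 0 called: 12 of 12 skeletal muscle, 8 of 8 endothelial and 8 of 8 macrophage markers were higher in knockout stroma (median differences 1.60, 0.58 and 0.98). Their part in the members' differences was not tested.

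The smallest adjusted p among members was that of Lpin1, whose difference was 2.23 ± 0.79 (adjusted p = 0.126) and 1.05 without wild-type stroma 65 and 82. All 8 knockout arrays lay above the wild-type median, yet wild-type stroma 9, at 5.60, was the highest of all. Cebpa followed at 1.25 ± 0.46 (adjusted p = 0.130) and Acaca at -0.79 ± 0.30 (adjusted p = 0.135). For Acaca, Fasn, Acly and Elovl6 all 8 knockout arrays lay below the wild-type median, with differences of -0.79, -1.15, -1.12 and -1.36. Wild-type stroma 9 was the lowest stroma array for Fasn (1.91), Acly (1.94) and Elovl6 (-2.02). For these 3 enzymes the wild-type range therefore enclosed the knockout range. Of the remaining members, Slc2a4 differed by 2.55 ± 1.04 (adjusted p = 0.144), Thrsp by 2.32 ± 0.92 (adjusted p = 0.140), Gpd1 by 2.28 ± 0.98 (adjusted p = 0.155) and Adipoq by 2.25 ± 1.29 (adjusted p = 0.245). For Aqp7 (1.25 ± 0.52, adjusted p = 0.146) and Mgll (1.22 ± 0.52, adjusted p = 0.152) all 8 knockout arrays lay above the wild-type median. The same held for Pparg, Cebpa, Lep, Plin4, Dgat1, Gpd1, Acsl1, Slc2a4, Thrsp, Lipe and Pnpla2. How many of all genes had all 8 knockout arrays on 1 side of the wild-type median was not counted.

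Single wild-type arrays decided how many genes passed, members among them. Wild-type stroma 9 is 1 of the arrays against their sex label, so it is also left out in that setting. Without wild-type stroma 9, 13 members were called higher and 4 lower in knockout stroma, where 34.3% of all genes were called. The 13 were Plin4, Lpin1, Gpd1, Acsl1, Lpl, Cd36, Aqp7, Slc2a4, Me1, Thrsp, Lipe, Pnpla2 and Mgll, and the 4 were Fasn, Acaca, Acly and Elovl6. The other members tested did not pass, among them Pparg, Cebpa and Fabp4 (limma adjusted p = 0.060, 0.055 and 0.061). Adipoq, Cfd, Retn, Plin1, Cidec and Pck1 did not pass either, with differences of 2.18 to 2.90 and SEs of 1.26 to 1.57. Lpl, which passed, differed by 1.42 ± 0.39. Without wild-type stroma 4, 6 were called higher (Pparg, Cebpa, Fabp4, Aqp7, Thrsp and Mgll) and 1 lower, Acaca (20.3% of genes). Here the share of members called was near that of all genes. With array weights, which give less weight to discordant arrays, 27 were called higher and 4 lower (65.7% of genes). In 1 fit of all 32 arrays 3 were called higher (Lpin1, Aqp7 and Thrsp) and 3 lower (Acaca, Acly and Elovl6), again near the share of all genes (16.1%). Without arrays against their sex label 10 were called higher and 2 lower (23.8% of genes). Without wild-type stroma 65 and 82 the count stayed at 0 and the members' median difference was 0.38. On 5 slides that held stroma of both genotypes, Lpin1 was higher in knockout stroma on 4 (-2.80 to 4.96) and Fasn lower on 4 (-3.83 to 2.50).

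**Figure D4:**
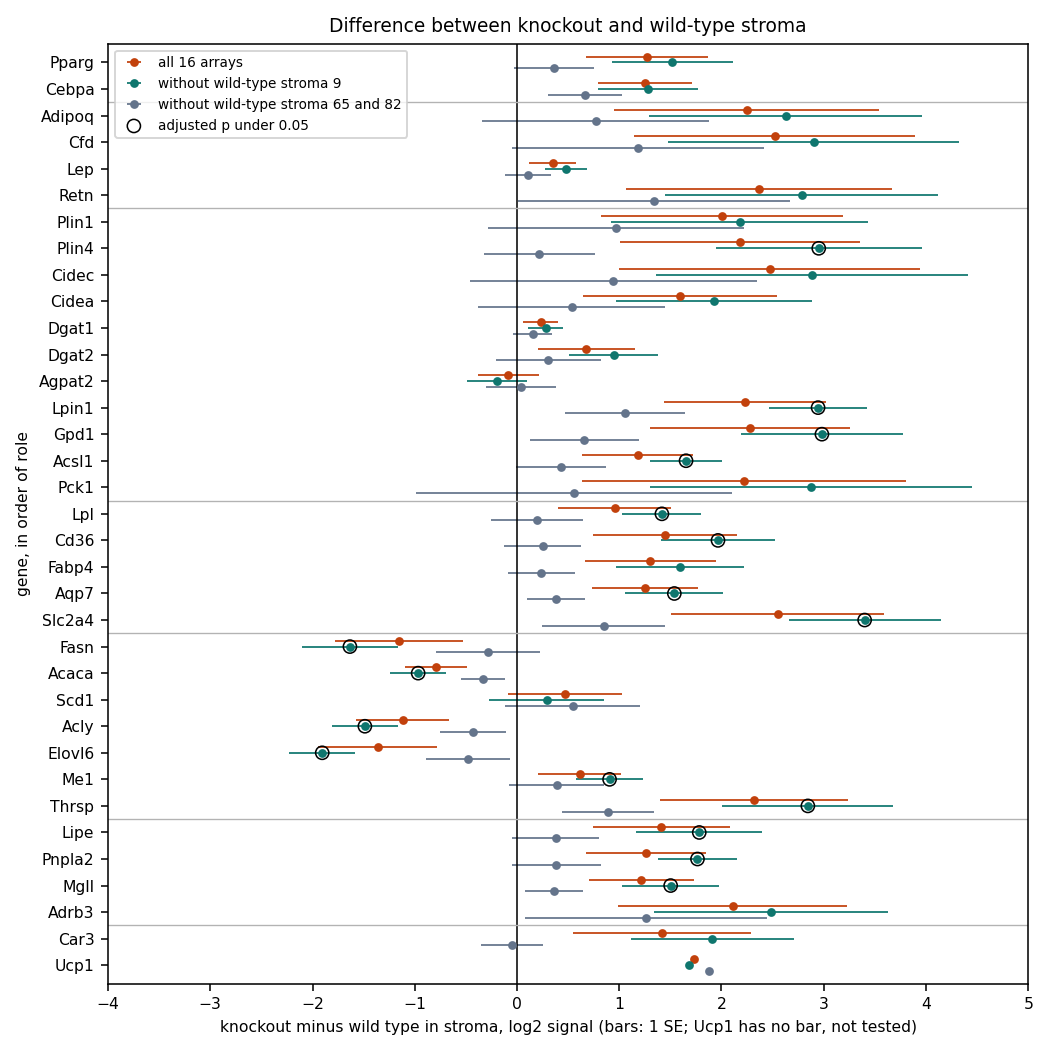
Knockout minus wild-type difference in stroma (log2, bars 1 SE) for each member with all 16 arrays, without wild-type stroma 9 and without wild-type stroma 65 and 82; rings mark an adjusted p under 0.05. No point of the full set is ringed, 17 are ringed without array 9, and the points of all members but Scd1 and Ucp1 lie closest to 0 without arrays 65 and 82.

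Within wild-type stroma, the order of the arrays differed between members. The groups named in this paragraph were picked after the values were seen, and no test was made. Skeletal muscle markers summed to 10.998 to 12.4 in knockout stroma and to 6.31 to 12.6 in wild-type stroma, with wild-type stroma 82 (6.31) and 65 (7.99) lowest and wild-type stroma 9 (12.6) highest. Slc2a4 followed this order, at -2.78, -0.81 and 6.73 on those 3 arrays, and so did Lpin1 at -1.13, -0.95 and 5.60. Adipoq had the same order (-5.00, -0.05 and 2.71), as did Cfd, Retn, Plin1, Cidec, Pck1 and Adrb3. Those 3 arrays therefore do not set these genes apart from Slc2a4 and Lpin1. Wild-type stroma 5 had a muscle level of 11.2, within the range of the other stroma arrays, and levels of 7.27 for Car3 and 2.99 for Slc2a4. Yet its levels of some fat genes were among the lowest of all stroma arrays: Adipoq was -3.89, Cfd -1.12, Retn -6.08, Plin1 -7.38, Cidec -3.77, Pck1 -6.73 and Adrb3 -7.32. Cidea was high there, at 0.68, and Cebpa (-0.75) lay above the wild-type stroma median (-1.27). Pparg (0.18) and Fabp4 (5.445) lay just below theirs (0.21 and 5.70). Wild-type stroma 45 showed a milder form, with 11.3 for muscle, 7.08 for Car3, -0.39 for Adipoq and -4.74 for Pck1. Both arrays thus had low levels of Adipoq and Pck1 beside levels of Car3 within the range of the knockout stroma.

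**Figure D5:**
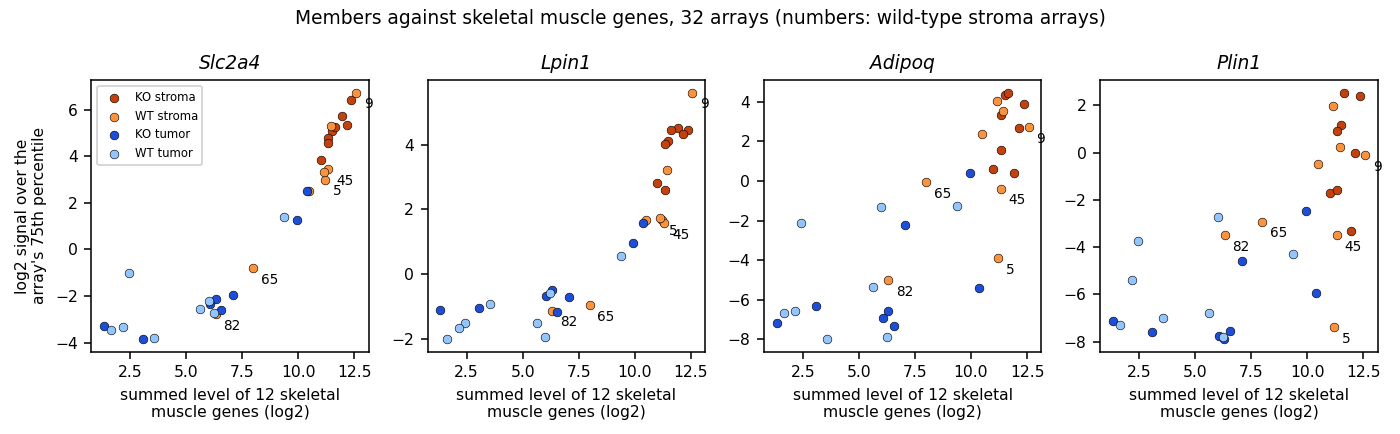
Levels of Slc2a4, Lpin1, Adipoq and Plin1 (log2 signal over the array's 75th percentile) against the summed log2 level of 12 skeletal muscle markers on 32 arrays; numbers mark wild-type stroma arrays. Slc2a4 and Lpin1 are highest on the arrays with the highest muscle level, whereas wild-type stroma 5 has a high muscle level (11.2) and low Adipoq (-3.89) and Plin1 (-7.38).

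Cell cycle genes differed between the same arrays, in the reverse order to muscle on wild-type stroma 82, 65 and 9. The summed cell cycle level ran from 2.58 to 5.90 in knockout stroma, from 0.92 to 7.11 in wild-type stroma, from 6.99 to 7.38 in knockout tumor and from 6.50 to 7.18 in wild-type tumor. Wild-type stroma 9, lowest for Fasn, Acly and Elovl6, was also the lowest for cell cycle genes (0.92), and wild-type stroma 65 (7.08) and 82 (7.11) were the highest of the stroma for these 3 genes and for cell cycle. Me1 and Thrsp did not share this order, with 5.78 and 1.30 on wild-type stroma 9 against 3.68 and -6.74 on wild-type stroma 82. All 8 cell cycle genes were lower in knockout stroma (median difference -1.46) with 0 called, and their part in the synthesis result was not tested.

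A few tumors had higher levels of some fat genes than the rest. Knockout tumor 81 had the highest tumor levels of Adipoq (0.42), Cfd (3.43), Plin1 (-2.47) and Pparg (-0.48). Wild-type tumor 9 had 1.30 for Cidec and -2.71 for Plin1, and wild-type tumor 1 had 2.03 for Cfd and -1.28 for Adipoq. In wild-type tumor 5 the highest tumor levels of Pck1 (-0.54), Lipe (-2.21), Adrb3 (-2.11) and Cidea (-1.91) were found, beside a Cfd level of -3.70. That array also stood apart in quality, with 483 outlier spots (next highest 175) and 76.3% of spots well above background (next highest 64.1%); the part of this in its levels was not tested. Knockout tumor 15, in contrast, led for Slc2a4 (2.52), Gpd1 (2.51), Lpin1 (1.57) and Car3 (2.91) and had a low Adipoq level (-5.40). Its summed muscle level of 10.4 was the highest among tumors. The next highest were those of knockout tumor 81 (9.94) and wild-type tumor 1 (9.37), and knockout tumor 81 also had 1.27 for Slc2a4, 1.69 for Gpd1 and 2.55 for Car3.

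In tumors, 0 of 27 members tested were called between genotypes, as were 0% of the 23749 genes tested. By limma, 2 members had an unadjusted p under 0.05, Cebpa (0.92 ± 0.42, adjusted p = 0.980) and Lpin1 (0.87 ± 0.38, adjusted p = 0.980), and 3.53% of all genes did. Knockout tumors lay above the wild-type median in 7 of 8 arrays for Cebpa and in 8 of 8 for Lpin1. Lpl differed by 0.46 ± 0.23 and Acsl1 by 0.31 ± 0.17 (adjusted p = 0.980 for both). All 7 synthesis members differed by between 0.05 and 0.29 (knockout minus wild type), none past the test, and the sign turned for Thrsp, Elovl6, Acaca and Acly in 1 alternative each. The median difference of all 11 storage members was -0.01 and crossed 0 between alternatives (-0.04 to 0.07). Adipoq, Plin1, Cidea, Pck1, Aqp7, Lipe, Adrb3 and Ucp1 were too dim in tumor to be tested.

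Between male-labelled and female-labelled hosts 0 members were called in stroma or in tumor (0% of genes in both). By limma 1 member in stroma and 2 in tumor had an unadjusted p under 0.05, against 2.27% and 7.64% of all genes. In stroma this was Scd1, at 1.43 ± 0.55 for male minus female (adjusted p = 0.9996), with the 2 highest arrays, knockout 15 and 81, both labelled male. In tumor Dgat2 differed by 0.37 ± 0.16 (adjusted p = 0.623) and Acsl1 by 0.37 ± 0.17 (adjusted p = 0.640).

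Other genes of the same pathways were taken from lists that did not include the members. Beside the list counts between the tissues given from here on, 26% of all 27120 genes tested were called higher in stroma and 36.8% lower. Of 16 other white fat genes, 13 were called higher in stroma and 3 lower (median difference 2.97), led by Gpam, the mitochondrial glycerol-3-phosphate acyltransferase (2.21 ± 0.20, adjusted p = 2.38e-08), and Sncg, gamma-synuclein (3.65 ± 0.42, adjusted p = 1.002e-07). The lower genes were led by Pde3b, the phosphodiesterase through which insulin restrains lipolysis (-1.69 ± 0.22, adjusted p = 5.51e-07), and Rbp4, a retinol carrier (-1.35 ± 0.30, adjusted p = 3.33e-04). Of 17 other lipolysis and fatty acid oxidation genes tested, 14 were called higher and 2 lower (median 1.23). Among the higher ones was Ppara, the nuclear receptor of fatty acid oxidation (4.73 ± 0.58). Prkar2b, a regulatory subunit of protein kinase A (-1.97 ± 0.30), and Cpt1a, the liver-type carnitine palmitoyltransferase (-0.57 ± 0.19), were the 2 lower ones, all 3 with an adjusted p of 0.0103 or below.

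Of 11 other fatty acid synthesis genes, 2 were called higher in stroma, Acacb, the mitochondrial acetyl-CoA carboxylase of muscle (5.41 ± 0.59), and Mid1ip1, a Spot 14 relative (1.40 ± 0.18). Another 6 were called lower, led by the elongase Elovl5 (-1.44 ± 0.17, adjusted p = 1.74e-07) and the desaturase Scd2 (-2.22 ± 0.29, adjusted p = 5.67e-07). Of the sterol synthesis list, 10 of 11 genes were called lower in stroma and 0 higher (median -1.67), led by Cyp51 (-2.16 ± 0.28, adjusted p = 3.38e-07) and Lss (-2.74 ± 0.35, adjusted p = 3.75e-07), both enzymes of the path from squalene to cholesterol. Of 10 other brown fat genes, 7 were called higher and 3 lower, the lower count being near the share of all genes (36.8%). Cox8b, a cytochrome c oxidase subunit of muscle and brown fat (7.40 ± 0.87), and Ebf2, a brown fat regulator (3.56 ± 0.46), led the higher ones. Zic1 (-2.42 ± 0.37) and the elongase Elovl3 (-2.06 ± 0.46), both known from brown fat, were among the lower ones.

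Between the genotypes in stroma, 0 genes of these 5 lists were called. In the white fat list 13 of 16 genes lay higher in knockout stroma (15 tested), where 55.3% of all genes did. Its smallest p was that of Gpam (1.64 ± 0.37, adjusted p = 0.125). All 11 sterol synthesis genes lay lower (median -1.17), with the smallest p for Cyp51 (-1.70 ± 0.50, adjusted p = 0.125). The smallest p belonged to Mid1ip1 in the fatty acid synthesis list (1.14 ± 0.32, adjusted p = 0.125) and to Zic1 in the brown fat list (-1.76 ± 0.70, adjusted p = 0.141). Skin could also contribute lipid genes. Of 7 keratinocyte markers measured, 2 were bright enough to be tested and 0 were called between the tissues, and their summed level was between -0.86 and 0.83 in stroma and between -1.12 and 0.16 in tumor. Of 6 sebaceous gland markers tested, 3 were called higher and 3 lower in stroma, and of 4 simple epithelium markers tested, 1 was called higher and 1 lower. The fibroblast and fat progenitor list was called higher for 6 of 8 genes and lower for 1, with a summed level of 7.06 to 8.95 in stroma and 6.87 to 8.11 in tumor. Their part in the members' differences was not tested.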

How the data were processed

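RNA from 32 samples was hybridised to single-colour Agilent arrays. The deposited scanner files hold processed signal intensity per spot, already background-corrected per the file headers. The submitters' processing notes name version 10.7.3.1 of Agilent Feature Extraction. The authors' deposited value table holds log2 values that were centred per probe on the tissue median; 99.5% of stroma and 91.3% of tumor values matched within 0.01, column medians ran from -0.312 to 0.558, and it served as an alternative.

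Control spots and outlier spots (58 to 483 an array) were left out, spots of a probe were averaged, and log2 intensity was scaled by subtracting the log2 of the array's 75th percentile. Probes were named through their RefSeq accession, and the probe with the highest mean stood for a gene. A gene entered a fit when 8 or more of its arrays had it well above background and at most 2 values were missing. limma 3.58.1 in R 4.3.3 fitted 1 mean per genotype and sex within a tissue (16 arrays), or per tissue, genotype and sex (32 arrays), with Benjamini-Hochberg adjustment over all genes and an adjusted p under 0.05 as the threshold. Every sample was fitted. The labels do not say that replicates are separate animals, so p-values measure only the spread between these samples, and the number of arrays limits the precision.

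Alternatives covered background correction (normexp with offset 50, on the median spot signal, as the files used here hold no mean signal), scaling, the filter, the probe rule, slide, sex, array weights, replicate number and arrays left out. All members were named; from each pathway list, up to 2 called genes with the smallest adjusted p in each direction were named, or, where none was called, the 1 with the smallest p; some genes that this rule picks are not reported here. Members and lists were chosen with earlier results of these data known. Methods were tested on simulated data.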

Additional observations from a re-analysis of the deposited data

Results flagged for a closer look

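Among 140 sets of 8 arrays (35 members in 4 groups), 8 held an array set far apart from the other 7 of its group by Dixon's test; chance marks about 1 in 20 sets. They fell on 5 arrays.

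In knockout tumor 81, Pparg was -0.48 (next highest -1.71) and Adrb3 was -5.94 (next highest -7.19), the second of these not well above background. In wild-type tumor 5, Lipe was -2.21 (next highest -5.23) and Adrb3 was -2.11 (next highest -6.50), and in wild-type tumor 1 Pnpla2 was 2.67 (next highest 1.87). In knockout stroma 12, Acsl1 was 3.39 (next lowest 4.33) and Cd36 was 0.76 (next lowest 1.83). In wild-type stroma 9, Elovl6 was -2.02 (next lowest 0.85).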

How the results depend on the processing

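Between stroma and tumor, 30 to 31 members were called when each array was left out in turn, 29 to 32 in knockout hosts and 22 to 29 in wild-type hosts; requiring detection on all arrays, which tests 20 members, gave 17 calls (65.4% of genes), 18 in knockout hosts (62.3%) and 12 in wild-type hosts (33.7%). Class medians kept their sign under every alternative run for stroma minus tumor (storage 2.98 to 4.47, synthesis -1.45 to -0.88, lipolysis 2.53 to 3.73). Scaling to probes bright on all arrays moved the median of all genes from -0.13 to -0.02.

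Calls between genotypes in stroma depended on the setting: 31 with array weights, 6 in 1 fit of all 32 arrays, 6 with the replicate block (16.6% of genes), 12 without arrays against their sex label, and 0 to 17 with each array left out. The genotype by tissue count was 27 with array weights, 4 without arrays against their sex label (8.39% of genes) and 0 to 9 with each array left out. Genotype in tumor and sex gave 0 with every array left out. The causes were not tested. Whether the numbers shared by stroma and tumor pair the samples was not settled. Of 15 shared numbers 9 correlated above 0.1 (-0.04 to 0.34) and 5 were best with their own number. The main fits leave these numbers out, and the replicate block, an alternative, had a correlation of 0.106.

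For single members, 1311 comparisons kept their direction and side of the threshold, 68 passed only in an alternative, 4 lost their call (Agpat2 and Me1, above) and 17 turned sign, none of them called. For stroma minus tumor, Scd1 turned to 0.0127 with normexp and quantile scaling, 0.000294 with quantile scaling, 0.0496 with bright probes and 0.42 without arrays against their sex label. For knockout minus wild type in stroma, Agpat2 turned to 0.14 without those arrays and 0.0385 without wild-type stroma 65 and 82, where Car3 turned to -0.0461. In tumor, Cidec turned to -0.0102 with normexp, Lep to 0.0636 with quantile scaling and Thrsp to -0.25 with the mean of all probes. Slide as a fixed block gave 0.0422 for Dgat2 and -0.00135 for Elovl6. Dgat2 was 0.0306 in the authors' values, 0.000918 with the replicate block and 0.0720 without arrays against their sex label, where Acaca was -0.00358 and Acly -0.17. Low signal over background in tumor limits Adipoq, Plin1, Cidea, Pck1, Aqp7, Lipe, Adrb3 and Ucp1.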
